A study of Caenorhabditis elegans with 2 samples.

Results

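The nuclear hormone receptor genes of Caenorhabditis elegans were examined for binding sites of a member of their own family, NHR-111. They were taken as every protein-coding gene whose symbol begins with nhr-, together with daf-12, unc-55, fax-1, sex-1 and odr-7. This gave 274 genes of the 19973 protein-coding genes on the 6 nuclear chromosomes. The annotation also holds 14 pseudogenes with nhr- symbols, which were not counted. The rule uses symbols and no measured value, though the family was picked with earlier results of these data known.

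The data were chromatin immunoprecipitation and sequencing (ChIP-seq) of whole larvae at the L4 stage, aged 48 hours, of both sexes pooled, synchronised by starvation at L1 after bleaching. All animals were of strain OP569, which has the unc-119(tm4063) mutation and an insertion, wgIs569, that supplies both the tagged receptor, nhr-111::TY1::EGFP::3xFLAG, and the rescuing unc-119(+) gene. Sonicated chromatin was precipitated with an antibody against GFP. The group had 2 biological replicates, and no untagged strain or control library was analysed here. The labels give neither the promoter nor the copy number of the transgene, and they do not say that the native nhr-111 gene was removed. For each replicate and for both pooled, the authors deposited the positions of 30000 intervals, a number that includes background by design, and a list of 501 peaks kept by the irreproducible discovery rate, which scores the agreement of ranks across replicates. The kept peaks are called thresholded below. The deposited signal value ran from 32.1 to 432 in the pooled list, from 17.5 to 214 in replicate 1 and from 18.8 to 242 in replicate 2. The scale of this value was not stated, the lists were not rescaled to each other, and depth is unknown.

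Nuclear hormone receptors are transcription factors with a zinc-finger DNA-binding domain and, in most members, a ligand-binding domain that in some receptors binds steroids, fatty acids or other small lipids. The family is strongly expanded in nematodes, where most members are related to the vertebrate receptor HNF4 and lie in clusters, many of them on chromosome V. NHR-111 belongs with FAX-1, NHR-67 and NHR-239 to the NR2E group, whose fly and vertebrate relatives are Tailless, PNR and TLX, factors of eye and nervous system development. Receptors regulate the genes of other receptors in known cascades, for example in insect moulting.

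A gene was counted as having a summit at its start when the deposited summit of an interval lay between 1000 bp upstream and 200 bp downstream of the start of the gene. Inside means between the ends of the gene. Receptor genes were rarely near the strongest peaks. Of the 274 members, 2 had a thresholded peak at the start or inside (0.730%, exact 95% Clopper-Pearson interval 0.0885 to 2.61%), against 2.05% of all protein-coding genes, a share within that interval. At the start alone the count was 1 (0.365%), against 1.05% of all protein-coding genes. Both peaks lay at tRNA genes on chromosome X, and no other member had a thresholded peak. The intervals of the binomial shares cover the counting of genes only.

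The first of the 2 was at nhr-255 (chromosome X, 15742610 to 15744298, plus strand, assembly ce11). Its summit was at position 15742080, which is 530 bp upstream of the gene and 30 bp into ZK678.t1, a tRNA-Leu gene that reads the same way. The second was in an intron of nhr-17 (X, 12663837 to 12667854, minus strand), 2627 bp from its start. That summit was at 12665227, which is 1 bp upstream of C02B4.t2, a tRNA-Tyr gene on the opposite strand. The 151 bp centred on each summit are printed because each shows the tRNA gene under the peak. They are from the RefSeq genome (WBcel235, the same sequence as ce11), chrX:15742005-15742155 and chrX:12665152-12665302, both on the plus strand, with the bases of the tRNA gene in capitals:
nhr-255: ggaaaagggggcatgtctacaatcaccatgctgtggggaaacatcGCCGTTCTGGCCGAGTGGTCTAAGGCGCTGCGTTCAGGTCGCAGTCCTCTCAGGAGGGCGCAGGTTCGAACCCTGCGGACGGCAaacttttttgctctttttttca
nhr-17: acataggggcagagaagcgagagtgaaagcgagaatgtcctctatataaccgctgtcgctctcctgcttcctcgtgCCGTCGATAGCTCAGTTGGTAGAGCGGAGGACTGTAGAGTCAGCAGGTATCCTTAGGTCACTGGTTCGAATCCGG

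The window at nhr-255 holds all 84 bases of its tRNA gene, and that at nhr-17 holds 75 of 84. Each holds a match to GTTCNANNC, the core of the B box, an element inside tRNA genes that the RNA polymerase III factor TFIIIC binds. The match reads GTTCGAACC at nhr-255 and GTTCGAATC at nhr-17. The tRNA-Tyr gene at nhr-17 also holds 1 copy of AGGTCA, the word that many nuclear receptors recognise in other animals.

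The peak at nhr-255 had a signal of 93.1 in replicate 1 and 77.8 in replicate 2 (85.4 ± 10.8, SD, n = 2) and was number 79 of 30000 in the pooled list, with a pooled signal of 170.4. The peak in nhr-17 had 83.4 in replicate 1 and 78.9 in replicate 2 (81.1 ± 3.16, SD, n = 2) and was number 87, with a pooled signal of 167.5. In replicate 1 they were the 2 strongest of the receptor intervals matched in both replicates, and in replicate 2 nhr-49 lay between them with 78.4. The deposited −log10 q-value was 2.22 for nhr-255 and 1.76 for nhr-17. Of the 501 thresholded peaks of the whole genome, 41.5% had a summit within 250 bp of a tRNA or snoRNA start, so the 2 receptor peaks were of a kind common in the list. Among the pooled intervals at receptor genes, 1.88% were so placed (7 of 372), against 2.16% of all pooled intervals, and none was at a snoRNA. The other 5 were the pair in nhr-150 (at genes for tRNA-Ala and tRNA-Tyr), the pair in nhr-41 (tRNA-Glu) and the one upstream of nhr-193 (tRNA-Asn). Whether the tRNA genes or the receptor genes were the recovered loci was not tested.

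The tagged gene itself came next. nhr-111 (V, 16122895 to 16124839, minus strand, 1945 bp, 7 exons) had no summit at its start in the pooled list. Its single pooled interval had its summit at 16122979, in the 3' UTR and 1860 bp from the start. The signal there was 46.8 in replicate 1 (number 848) and 59.1 in replicate 2 (number 500), a mean of 52.9 ± 8.69 (SD, n = 2). Pooled, it was 101.4 and number 503, just outside the thresholded list, whose lowest signal was 101.5 (number 501).

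That last thresholded peak lies in the same neighbourhood, 11975 bp upstream of nhr-111. Within 20 kb of the start of nhr-111 there were 8 pooled intervals, against a median of 11 around all protein-coding genes. In replicate 1 there were 17, against a median of 12, and in replicate 2 there were 9, against 11. Of the 8 pooled intervals, however, 4 were among the 1000 strongest, where the median gene had 0. Only 0.611% of protein-coding genes (122) had as many, 2 of them receptor genes. In replicate 1 the count among the 1000 strongest was 3, reached by 1.77% of genes, and in replicate 2 it was also 3, reached by 2.34%. The 7 intervals apart from the one in the 3' UTR lay from 10461 to 16016 bp upstream, where F44G3.7, clc-11 and clc-32 are annotated. The labels do not give the extent of the transgene, so whether it holds this upstream region is unknown. Where it carries DNA of the locus, the sequence is that of the native copy, and signal from either cannot be told apart here.

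**Figure D1:**
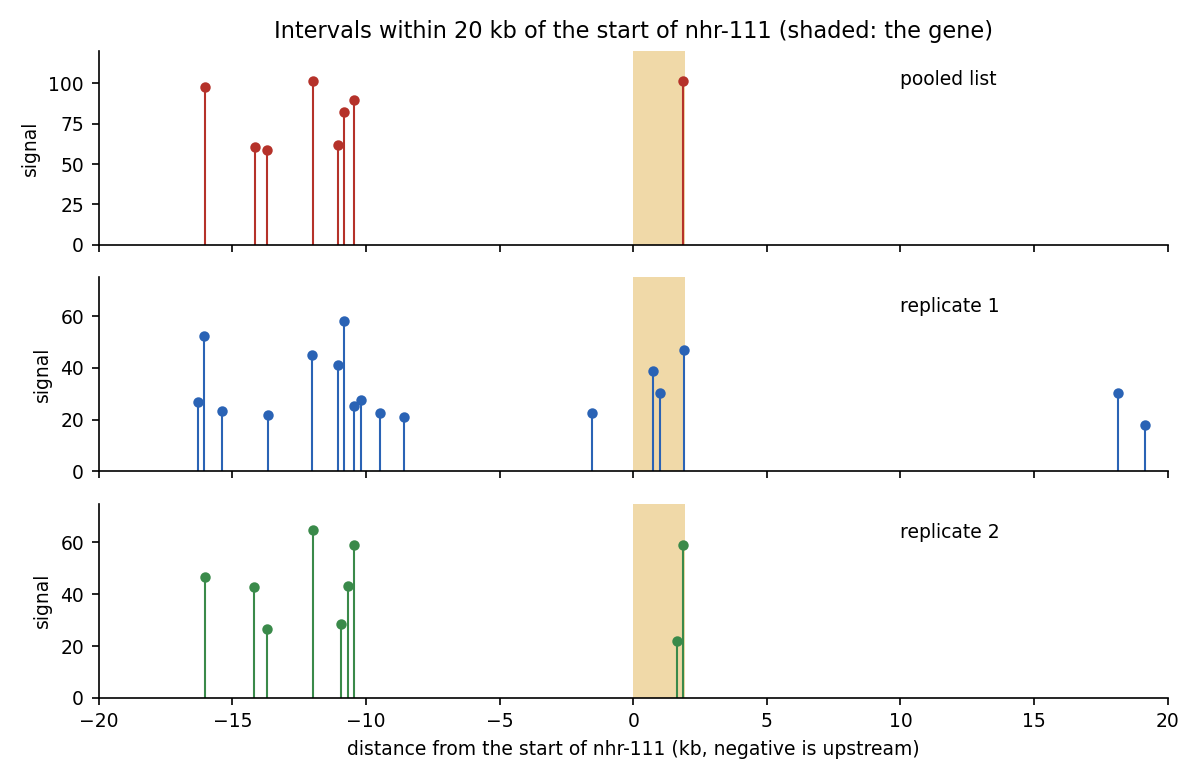
Deposited signal (vertical axis, scale as deposited) of every interval whose summit lay within 20 kb of the start of nhr-111 (horizontal axis, distance in kb), in the pooled list and in each replicate, with the gene shaded. The interval at the 3' end of the gene and most of the group from 10461 to 16016 bp upstream appear in all 3 lists. The pooled one 14154 bp upstream has a match within 200 bp in replicate 2 alone, and other weaker ones differ between replicates.

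Away from tRNA genes, the strongest summit at the start of a receptor gene was at nhr-49, which encodes a regulator of fatty acid desaturation and oxidation. It lay at position 9869230 of chromosome I, 421 bp upstream, and was number 710 in the pooled list with a signal of 92.4. The replicates were far apart: 27.7 in replicate 1 (number 8837) and 78.4 in replicate 2 (number 165), a mean of 53.1 ± 35.9 (SD, n = 2).

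The next in order were nhr-142 and nhr-32. At nhr-142, 198 bp upstream of the start, the signal was 31.8 in replicate 1 and 52.5 in replicate 2 (42.1 ± 14.6, SD, n = 2). That summit also lies in the start window of F44E7.9. At nhr-32, 339 bp upstream, it was 26.5 in replicate 1 and 41.3 in replicate 2 (33.9 ± 10.5, SD, n = 2). Both were higher in replicate 2, as at nhr-49.

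nhr-68, a receptor of the circuit that turns on the alternative propionate breakdown pathway, went the other way. Its summit in a coding exon, 70 bp downstream of the start, was number 372 in replicate 1 with a signal of 55.9, and replicate 2 had no summit within 200 bp. nhr-54 was the other member with a start summit among the 1000 strongest of a single replicate and no match in the other. There replicate 1 had 49.9 (number 609) at an intronic summit 158 bp downstream of the start, and the pooled rank was 6590. No member met this description in replicate 2.

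Further down, nhr-159 had 43.5 in replicate 1 and 24.2 in replicate 2 (33.9 ± 13.7, SD, n = 2), 73 bp upstream of its start. nhr-234 had 28.6 in replicate 1 and 40.9 in replicate 2 (34.7 ± 8.69, SD, n = 2), in an intron 72 bp downstream of its start. The rest of the 15 strongest at starts were nhr-102, nhr-217, nhr-286, nhr-79, nhr-14, nhr-103, nhr-3 and nhr-25, with pooled signals from 58.3 to 65.1. Of these, nhr-217 and nhr-14 were matched in replicate 2 alone. The closest pair of replicate values among them was at nhr-79, 913 bp upstream, with 32.3 in replicate 1 and 30.2 in replicate 2 (31.3 ± 1.51, SD, n = 2).

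Inside genes and away from their starts, the strongest intervals after nhr-17 and nhr-111 were in nhr-88, nhr-46 and nhr-119. In nhr-88 a summit in a coding exon 9007 bp from the start had 39.9 in replicate 1 and 52.8 in replicate 2 (46.4 ± 9.14, SD, n = 2), with a pooled signal of 97.0. A second interval in an intron of the same gene, 1323 bp from the start, had 46.7 in replicate 1 and 45.6 in replicate 2, and nhr-88 held 6 pooled intervals in all. nhr-88 was the only receptor gene with 2 intervals among the 1000 strongest of the pooled list.

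In nhr-46 an intronic summit had 26.9 in replicate 1 and 62.5 in replicate 2 (44.7 ± 25.2, SD, n = 2). In nhr-119 a summit in the 3' UTR had 48.4 in replicate 1 and 34.8 in replicate 2 (41.6 ± 9.62, SD, n = 2). The replicates differed in opposite directions at these genes, and by more at nhr-46 than at nhr-119. For receptor intervals among the 5000 strongest of the pooled list, the median SD was 22.9% of the mean. The others among the 10 strongest were in nhr-150, nhr-236, nhr-3, nhr-40 and nhr-41, with pooled signals from 78.8 to 83.3. Of these, nhr-150 had 39.2 in replicate 1 and 37.8 in replicate 2, and nhr-41 had 37.7 in replicate 1 and 41.8 in replicate 2, and both lay at tRNA genes.

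Sequence at 3 of these intervals is printed as examples of windows that hold a marked word, and not as a neutral sample of windows. The window at nhr-234 holds neither AAGTCA nor AGGTCA and is shown for TTAGGC, a repeat and not a receptor word. How often each word occurred in all windows is given below. The windows are 151 bp around the summit from the RefSeq genome (ce11): nhr-234 at chrII:12636675-12636825 (plus strand), nhr-159 at chrV:3878321-3878471 (minus strand) and nhr-88 at chrII:2985571-2985721 (plus strand). Capitals mark TTAGGC in nhr-234, AAGTCA in nhr-159 and AGGTCA in nhr-88, each in either orientation:
nhr-234: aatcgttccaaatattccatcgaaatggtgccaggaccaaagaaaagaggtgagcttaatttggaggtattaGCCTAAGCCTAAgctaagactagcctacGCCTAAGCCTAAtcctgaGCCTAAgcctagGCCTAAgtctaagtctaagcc
nhr-159: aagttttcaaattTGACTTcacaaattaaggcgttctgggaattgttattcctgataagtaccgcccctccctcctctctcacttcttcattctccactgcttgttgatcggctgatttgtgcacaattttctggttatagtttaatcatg
nhr-88: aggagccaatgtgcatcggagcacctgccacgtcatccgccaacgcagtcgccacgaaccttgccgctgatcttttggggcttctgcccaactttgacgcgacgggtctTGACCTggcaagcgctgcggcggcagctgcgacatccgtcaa

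AAGTCA is the word that the NR2E proteins Tailless and TLX bind in flies and vertebrates, and AGGTCA is the usual word of the wider family. In each of the last 2 windows above the word occurs 1 time and not at the summit. AAGTCA was in 5.38% of the 372 windows at receptor genes (20), against 6.14% of all pooled windows. AGGTCA was in 8.33% (31), against 4.04% of all pooled windows, but this gap was not seen in the replicate lists. There the share was 4% at receptor genes against 4.25% of all in replicate 1 (400 windows), and 4.76% at receptor genes against 4.11% of all in replicate 2 (336 windows). Both strands were searched, and the 2 words do not overlap each other. GTTCNANNC was in 7.53% of windows at receptor genes against 7.12% of all pooled windows, and in 32.7% of the thresholded peaks.

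In whole start windows of 1201 bp, whether or not a summit lay there, AAGTCA occurred in 55.1% of receptor genes against 45.0% of all protein-coding genes, and AGGTCA in 26.6% against 26.7%. Among receptor genes AAGTCA was in 50.7% of the 75 start windows with a pooled summit, and in 56.8% of the 199 without. The word was therefore no more frequent where a summit lay. The median GC content was 37.0% in receptor start windows with a summit and 33.4% in those without; over all protein-coding genes it was 36.6% with and 34.2% without. A match of a few letters is a description of the window and not a binding site.

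TTAGGC, the repeat unit of nematode telomeres, was looked for after the sequences had been seen. At least 3 copies lay in 4 of the 372 windows (1.08%), against 0.640% of all pooled windows and 0 thresholded peaks. The 4 were at nhr-111 (3 copies, in the 3' UTR interval described above), nhr-234 (6 copies), nhr-146 (10 copies, intron) and nhr-121 (7 copies, 625 bp upstream). The first 2 were matched in both replicates, and the last 2, with pooled signals of 42.3 and 33.4, in replicate 1 alone. By replicate the share was 1.75% at receptor genes against 0.653% of all windows in replicate 1, and 0.595% at receptor genes against 0.620% of all in replicate 2. Reads from such repeats can belong to several places, and how such reads were placed was not stated.

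**Figure D2:**
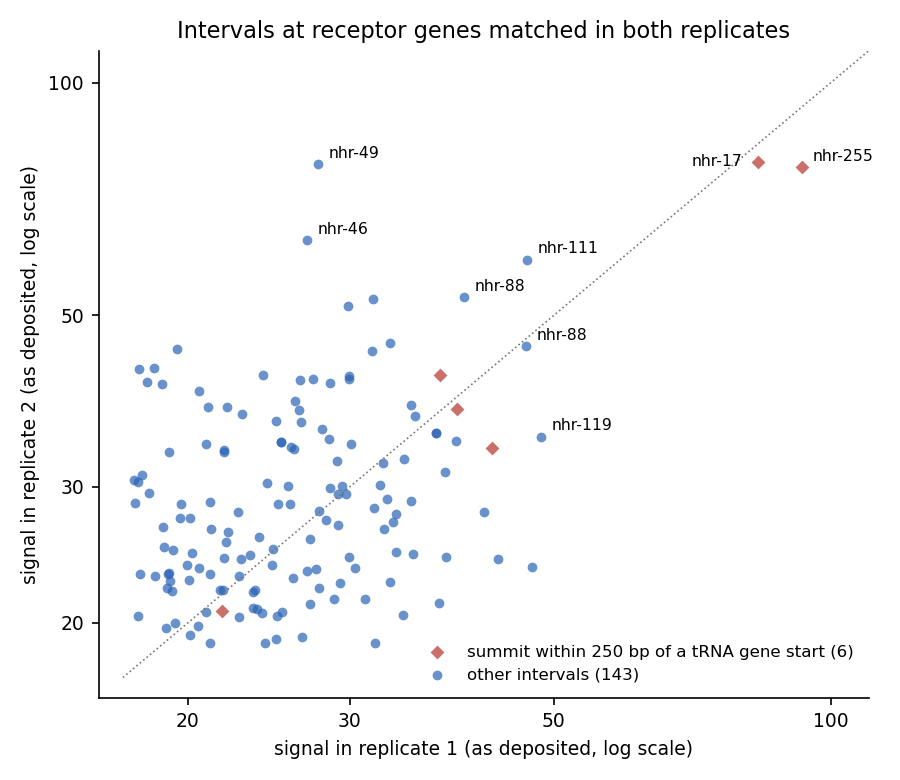
Signal in replicate 2 (vertical axis) against replicate 1 (horizontal axis), both as deposited and on log scales, for the 149 pooled intervals at receptor genes matched in both replicates; diamonds are summits near a tRNA start, circles all others, and the dotted line marks equal values. Intervals among the 1000 strongest of the pooled list are named: nhr-255 and nhr-17 stand apart at the upper right, and nhr-49 and nhr-46 lie far above the line.

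Receptor genes did not stand out in the share of intervals matched between replicates. The pooled list held 372 distinct intervals at or in them, and 149 of these (40.1%) had a summit within 200 bp in both replicate lists, against 39.7% of all pooled intervals. A further 104 were matched in replicate 1 alone, 94 in replicate 2 alone and 25 in neither. Where both replicates had a value, the median SD was 15% of the mean at receptor genes and 17% over all intervals. The median ratio of replicate 2 to replicate 1 was 1.09 in both sets. Among the 5000 strongest pooled intervals, 49 of 54 at receptor genes (90.7%) were matched in both replicates, against 89.6% of all. In this set the median SD was 22.9% of the mean at receptor genes and 21.5% over all. The median ratio of replicate 2 to replicate 1 was 1.26 at receptor genes and 1.13 over all. The median pooled signal was 43.4 at receptor genes and 43.0 over all intervals.

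Counted over the full lists, the family was close to the genome. A pooled summit lay at the start of 75 members (27.4%, interval 22.2 to 33.1%), against 31% of all protein-coding genes, and at the start or inside of 167 (60.9%, interval 54.9 to 66.8%), against 62.2%. In replicate 1 the start count was 83 (30.3%), against 30.6%, and in replicate 2 it was 61 (22.3%), against 30.9%. The mean over replicates was 26.3 ± 5.68% for receptor genes and 30.7 ± 0.269% for all protein-coding genes (SD, n = 2). The share of receptor genes was thus lower than that of all genes in replicate 2, and nearly equal to it in replicate 1. The exact intervals include the genome's share in the pooled list and in replicate 1 (24.9 to 36.1%), but not in replicate 2 (17.5 to 27.7%), and they treat neighbouring genes as independent. With the gene body included, the counts were 176 in replicate 1 (64.2%), against 63.5%, and 159 in replicate 2 (58.0%), against 61.8%.

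Fewer members held up in both lists. Matched summits of both replicates lay at the start of 27 members (9.85%), against 12.6% of all protein-coding genes. Among the 5000 strongest pooled intervals, 11 members had a summit at the start (4.01%), against 6.79%, and 42 had one at the start or inside (15.3%), against 17.8%. A summit at the start was in replicate 1 alone for 49 members and in replicate 2 alone for 27. The share of all protein-coding genes with a start summit in 1 replicate alone was not computed. In either replicate list, 110 of the 274 members had a start summit, against 44.8% of all protein-coding genes. At the other end, 63 members (23%) had no interval in any of the 3 full lists, against 22.6% of all protein-coding genes. With 1 group and neither an untagged strain nor the control analysed here, these counts are descriptions beside the genome's share, and no test was made.

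**Figure D3:**
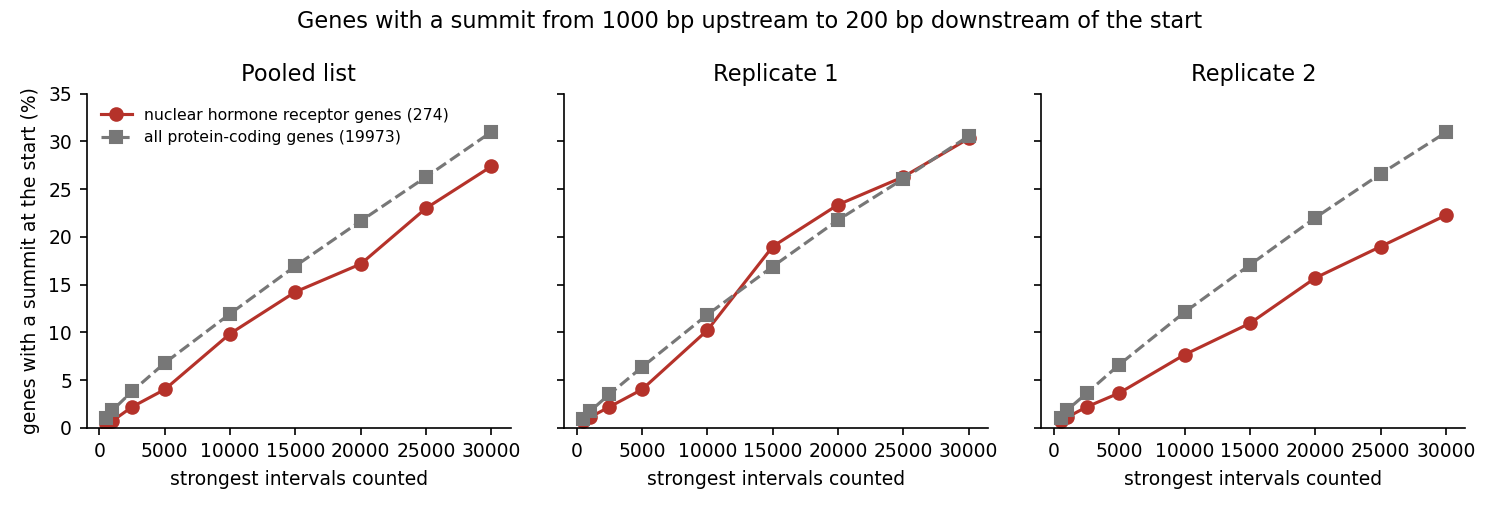
Share of genes with a summit at the start (vertical axis, %) as more intervals are counted, from the strongest down (horizontal axis), in the pooled list and each replicate, for receptor genes (circles) and all protein-coding genes (squares). Receptor genes are below up to 10000 intervals in all 3 lists, above it from 15000 to 25000 in replicate 1 and just below at the last point (30.3% and 30.6%), and below throughout in replicate 2 (22.3% and 30.9% at 30000).

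The curve of shares against depth shows how the lists differ. At 5000 intervals the share of receptor genes was 4.01% in replicate 1 and 3.65% in replicate 2, and that of all protein-coding genes was 6.35% in replicate 1 and 6.62% in replicate 2. At 15000 intervals it was 19.0% against 16.9% in replicate 1 and 10.9% against 17.1% in replicate 2, so the replicates differed in direction there. In replicate 2 the gap was wider still at 30000, with 22.3% against 30.9%.

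Most intervals at receptor genes lay within gene bodies. Of the 372, 80 were at a start and 292 inside only, and by position 122 were in coding exons, 171 in introns, 21 in other exonic sequence and 58 upstream. For 78 of the 80 start intervals the nearest protein-coding start was that of a receptor gene, and 7 also lay in the start window of another protein-coding gene. With genes of every type counted, the nearest start was that of a receptor gene for 68 of the 80. Per kb of sequence, receptor genes had 0.324 pooled summits and all protein-coding genes 0.340. The value was 0.368 against 0.443 in coding exons, 0.308 against 0.267 in introns and 0.246 against 0.304 in start windows.

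**Figure D4:**
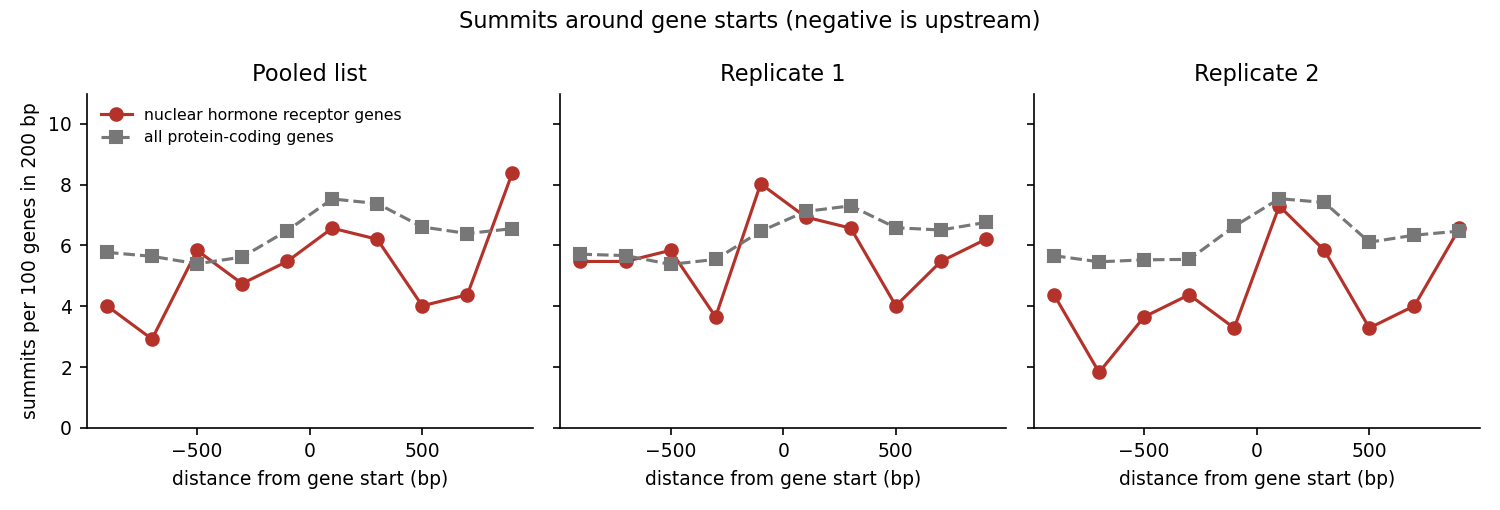
Summits per 100 genes in bins of 200 bp (vertical axis) against distance from the gene start in bp (horizontal axis, negative is upstream), in the pooled list and each replicate, for receptor genes (circles) and all protein-coding genes (squares). The curve of all genes is highest in the first 400 bp downstream (7.53 and 7.38 in its 2 bins in the pooled list), and the receptor curve, with 5 to 23 summits per bin, moves around it without a peak common to the 3 lists.

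Around starts, receptor genes had 6.57 pooled summits per 100 genes in the first 200 bp downstream, against 7.53 for all protein-coding genes. In the 200 bp just upstream they had 8.03 against 6.47 in replicate 1 and 3.28 against 6.63 in replicate 2. The replicates were thus on either side of the genome in this bin.

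Longer receptor genes held intervals more often, as longer genes did in general. A pooled summit lay at or in 38 of the 88 members of 1000 to 2000 bp (43.2%), against 52.1% of all protein-coding genes of that length. It was 53 of 95 (55.8%) against 64.5% for 2000 to 3000 bp, 38 of 47 (80.9%) against 73.6% for 3000 to 5000 bp, and 37 of 39 (94.9%) against 89.5% for 5000 bp and more. The shorter receptor genes were therefore below genes of their length and the longer ones above. The longest, nhr-27 (X, 102756 bp), held 36 pooled intervals, 42 in replicate 1 and 26 in replicate 2. daf-12 followed with 15 pooled intervals over 30968 bp, 11 in replicate 1 and 17 in replicate 2. In all, 87 members had 1 pooled interval, 66 had 2 to 4 and 14 had 5 or more.

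Chromosome V, which carries 167 of the 274 members (60.9%), had the lowest share at starts in the pooled list. There 33 members had a pooled summit at the start (19.8%), against 26% of protein-coding genes on V. Off chromosome V it was 42 of 107 (39.3%), against 32.6%. In replicate 1 the share on V was 26.9% against 27.6%, and off V it was 35.5% against 31.5%. In replicate 2 it was 21.0% against 25.6% on V and 24.3% against 32.7% off V. The higher share off V in the pooled list and in replicate 1 was therefore not found in replicate 2. Among single chromosomes X was above its genes in all 3 lists, with 44.4% against 30.6% pooled, 44.4% against 28.5% in replicate 1 and 33.3% against 31.7% in replicate 2, over 27 members. On chromosome III 5 of only 8 members had a pooled start summit (62.5%), against 37.7%, and the share was 37.5% in each replicate, against 37.4% in replicate 1 and 37.5% in replicate 2.

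**Figure D5:**
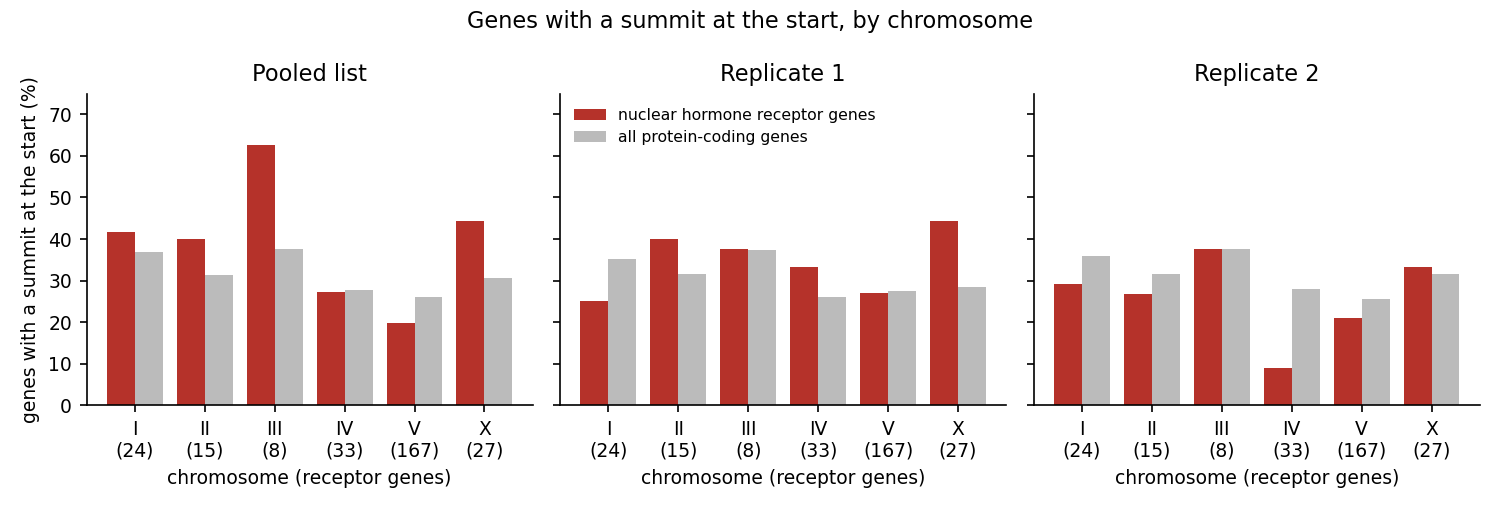
Share of genes with a summit at the start (vertical axis, %) on each chromosome (horizontal axis, number of receptor genes in brackets), with receptor genes in red left of all protein-coding genes in grey, for the pooled list and each replicate. The bars of receptor genes move far between lists where members are few, and on chromosome V, with 167 members, they stand at 19.8%, 26.9% and 21.0%.

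Within chromosome V the gap to other genes was widest in the middle. Of the 56 members in the central 50% of its length, 7 had a pooled start summit (12.5%), against 25.2% of protein-coding genes there. The share was 19.6% against 27.3% in replicate 1 and 10.7% against 26.1% in replicate 2. For the members outside it, the share was 23.4% against 26.9% pooled, 30.6% against 27.9% in replicate 1 and 26.1% against 25.1% in replicate 2. In these 3 lists the members of the centre were below the genes around them. Members whose neighbouring protein-coding gene was also a receptor gene had a pooled start summit in 23 of 136 cases (16.9%), and members with no such neighbour in 52 of 138 (37.7%). By replicate these shares were 21.3% and 39.1% in replicate 1, and 18.4% and 26.1% in replicate 2. Of the neighbouring ones 107 lay on chromosome V, with a median length of 2147.5 bp, and of the others 60, with 2815.5 bp, so position, clustering and length cannot be told apart. These splits were chosen after the values by chromosome had been seen.

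By role, the members closest in kind to NHR-111 had weak intervals. Of the 4 NR2E receptor genes all had a pooled interval at the start or inside, against 62.2% of all protein-coding genes. At the start 1 had one, against 31%, and 0 had matched start summits in both replicates, against 12.6%. fax-1, which specifies neuron identity, had its best interval in a coding exon, with 36.3 in replicate 1 and no summit within 200 bp in replicate 2 (pooled number 5130). nhr-67, needed in vulval and anchor cell development, had 21.4 in replicate 1 alone (pooled number 26456). nhr-239 had 23.5 in replicate 1 and 20.9 in replicate 2 (22.2 ± 1.85, SD, n = 2; pooled number 12542) in a coding exon 4435 bp from its start. At its start the best summits had 29.5 in replicate 1 and 26.1 in replicate 2, with no match within 200 bp. The pooled start summit of nhr-239 was number 21493. Only nhr-111 itself was among the 5000 strongest.

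Of the 11 other conserved receptors, 7 had a pooled summit at the start, against 31% of all protein-coding genes. All 11 had one at the start or inside, against 62.2%, and 7 had one there among the 5000 strongest, against 17.8%. Only 1 of the 11 had matched start summits in both replicates, against 12.6%. The median length of the 11 was 5531 bp, against 2320 bp for all members and 2027 bp for all protein-coding genes. In the whole family the share at the start or inside rose with length. The share at the start alone was 25% for 1000 to 2000 bp, 21.1% for 2000 to 3000 bp and 25.5% for 3000 to 5000 bp. It was 51.3% for 5000 bp and more. In unc-55, which sets the synaptic pattern of motor neurons, an intronic summit had 37.2 in replicate 1 and 35.2 in replicate 2 (36.2 ± 1.46, SD, n = 2). In daf-12, the steroid receptor of dauer formation and developmental timing, the best interval, in an intron 1425 bp from the start, had 29.9 in replicate 1 and 41.4 in replicate 2 (35.7 ± 8.12, SD, n = 2). daf-12 had no summit at its start in any of the 3 full lists.

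Of the 7 receptors of moulting and developmental timing, 4 had a pooled start summit, against 31% of all protein-coding genes, and 1 a matched one in both replicates, against 12.6%. Their median length was 6555 bp. Of all members of 5000 bp or more 51.3% had a pooled start summit, against 36.3% of protein-coding genes of that length. nhr-23, which drives the moulting cycle, had an intronic summit with 29.4 in replicate 1 and 30.1 in replicate 2 (29.8 ± 0.475, SD, n = 2). nhr-25, an FTZ-F1 relative that acts in moulting and epidermal development, had 33.2 in replicate 1 and 22.6 in replicate 2 (27.9 ± 7.49, SD, n = 2), 318 bp upstream. nhr-85, a heterochronic regulator, had 22.9 in replicate 1 and 37.2 in replicate 2 in a coding exon. nhr-91 had 49.4 in replicate 2 (number 1059) with no match in replicate 1.

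Of the 11 metabolic receptors, 8 had a pooled start summit, against 31% of all protein-coding genes, and 2 had summits matched in both replicates, against 12.6%. Their median length was 4343 bp. Beside nhr-49 and nhr-68, nhr-80, which controls fatty acid desaturation, had a summit in a coding exon 141 bp downstream of its start with 38.0 in replicate 2 and no match in replicate 1. nhr-8, a receptor of sterol and xenobiotic responses, had 18.4 in replicate 1 and 42.7 in replicate 2 (30.5 ± 17.2, SD, n = 2) in a coding exon. nhr-48, its close relative among the conserved receptors, had 27.4 in replicate 1 and 41.4 in replicate 2. All 3 were thus higher in replicate 2 or matched there alone.

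Of the 5 neuronal identity receptors, 2 had a pooled start summit, against 31% of all protein-coding genes, and 0 a matched one, against 12.6%. odr-7, which specifies the AWA olfactory neurons, had its best interval in a coding exon, with 25.7 in replicate 2 and no match in replicate 1 (pooled number 18206), whereas at its start replicate 1 had a summit of 24.2. nhr-6, an NR4A relative needed for the spermatheca, had 6 pooled intervals, the best of them in a coding exon with 33.7 in replicate 1 and no match in replicate 2. Its next interval, also in a coding exon, had 36.3 in replicate 2 and no match in replicate 1. sex-1, which reads the number of X chromosomes in sex determination, had a summit 49 bp upstream of its start with 25.4 in replicate 1 and no match in replicate 2. These are weak intervals of the full lists, which include background, and a missing match concerns the interval named and not the whole gene.

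Other genes of receptor pathways were read from lists of cofactors, targets and hormone synthesis. Like the lists of receptors by role above, these were chosen with earlier results of these data known. Their counts are therefore descriptions, and a share above that of all genes is not independent support. Of 14 receptor cofactor genes, 3 had a thresholded peak at the start or inside, against 2.05% of all protein-coding genes: cbp-1, mdt-26 and hsp-90. The median length of the 14 was 5057.5 bp, against 2027 bp for all protein-coding genes, and the thresholded share of genes of that length was not computed. At cbp-1, which encodes the p300 and CBP histone acetyltransferase, the summit was 890 bp upstream, with 119.1 in replicate 1 and 188.9 in replicate 2 (154.0 ± 49.4, SD, n = 2), number 9 in the pooled list. In mdt-26, a Mediator subunit gene, an intronic summit 618 bp downstream of the start had 105.5 in replicate 1 and 203.4 in replicate 2 (154.4 ± 69.2, SD, n = 2), number 8. Both were stronger than any interval at a receptor gene.

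hsp-90, the chaperone of steroid receptors, had weaker peaks in an intron (number 229) and a coding exon (number 402), each also in the start window of another protein-coding gene. Of 15 target genes of receptors, 1 had a thresholded peak at the start or inside, against 2.05% of all protein-coding genes. It was icl-1, for the glyoxylate cycle enzyme, with a summit 186 bp downstream of its start that had 41.8 in replicate 1 and 80.3 in replicate 2 (61.1 ± 27.2, SD, n = 2). That summit is also in the start window of srh-2. A second peak at icl-1, upstream of the gene and number 263 in the pooled list, had 53.3 in replicate 1 and 26.4 in replicate 2 (39.9 ± 19.0, SD, n = 2), so the 2 peaks differed between replicates in opposite directions. A pooled start summit lay at 10 of the 15 target genes, against 31% of all protein-coding genes, and a matched one at 3, against 12.6%. All 15 had a pooled interval at the start or inside, against 62.2%. Of 8 genes of hormone synthesis and sterol transport, 0 had a thresholded peak and 1 had a pooled start summit, against 31% of all protein-coding genes. A pooled interval at the start or inside lay at 6 of the 8, against 62.2%.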

How the data were processed

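Whole L4 larvae of 1 strain were profiled by ChIP-seq in 2 biological replicates, grouped and numbered from the labels. Per the text files deposited with the samples, the intervals of each replicate were made from its alignment and 1 common control, those of the pooled list from both alignments and that control, and the thresholded list from all 3 by the irreproducible discovery rate, in assembly ce11. The values that the authors deposited per interval are a signal of unstated scale, a −log10 q-value by the file format and a summit offset. Aligner, caller and threshold: not given in the sources used here. With no read totals, depth is unknown, and the exact binomial intervals (95%) hold counting error of genes only.

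Genes came from Ensembl release 115 (WBcel235, the same sequence as ce11; 46890 genes), with symbols from RefSeq by WormBase identifier, found for all 274 members. Summits were ranked by signal, the q-value was only quoted, and summits within 200 bp were matched between replicates. Counts used Python 3.11.15, numpy 2.4.6 and scipy 1.17.1, and figures matplotlib 3.10.9. The counting was checked on simulated summits. No test, rescaling or set comparison was made. Alternatives were other windows, any transcript start, the nearest protein-coding start, interval overlap, summits at 612 tRNA and 346 snoRNA genes left out, each replicate alone and other list lengths.

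The members, gene lists and tests were chosen with earlier results of these data known. The genes named were nhr-111, the non-nhr members, nhr-67, nhr-239, well-known conserved receptors, all members with a thresholded peak, the 15 strongest at starts and 10 strongest inside, up to 5 per replicate with a strong start summit of that replicate alone, and listed pathway genes with a thresholded peak. nhr-27, nhr-121, nhr-146, nhr-193 and F44G3.7, clc-11 and clc-32 were named after their values were seen.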

Additional observations from a re-analysis of the deposited data

How the results depend on the processing

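Of 43 recomputed counts, 32 stayed within 1.5 times the reported one, and 39 kept the share of receptor genes below that of all protein-coding genes. The 2 members with a thresholded peak became 1 with a window of 500 bp upstream to 100 bp downstream, 1 when a summit counted only for the nearest protein-coding start, 0 without intervals at tRNA or snoRNA starts, and 7 in a list of doubled length. With as many strongest intervals of single replicates they were 3 to 5. The 75 members with a pooled start summit became 41 with the shorter window and 113 with 2000 bp upstream to 500 bp downstream, and 61 to 83 with single replicates. The 27 members matched in both replicates became 14 with the shorter window. The 11 among the 5000 strongest became 2 among the 1000, 6 among the 2500 and 27 among the 10000 strongest, and 10 to 11 with single replicates. The 167 members with any pooled summit ran from 151 to 178 under all alternatives.

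The share of receptor genes passed that of all protein-coding genes in 4 cases: at starts by nearest start only (27.0% against 25.7%), and at the start or inside with the shorter window (58.0% against 57.6%), by nearest start only (55.1% against 53.7%) and in replicate 1 alone (64.2% against 63.5%). With 2 replicates, no control library analysed here and unknown depth, a gene without an interval may still be bound. No paired analysis was possible because there was 1 group.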
